A study of Rhodotorula toruloides with 9 samples.

Results

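RTO4_13270 is a gene of Rhodosporidium toruloides IFO0880, a red basidiomycete yeast, and it encodes a transcription factor with a zinc binuclear cluster (Zn2Cys6). It is 1 of 8578 gene models in the deposited tables and was found there by its number. It lay on the plus strand of scaffold 3 of the version 4 genome, between positions 1262917 and 1265999, a span of 3083 bp that no other gene model overlapped. Which bases of the span are exonic was not analysed here. The study named the gene because its transcript was higher on d-galacturonic acid (d-galUA), the main sugar acid of pectin, and because its disruption impaired growth on that substrate. The level on d-galUA is therefore given as a description without a test, and the difference between glycerol and d-glucose (d-glc) is tested.

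Zn2Cys6 proteins form a large family of fungal transcription factors, of which Gal4 of Saccharomyces cerevisiae is the best known. They bind short DNA motifs through a domain in which cysteines hold zinc ions, and many of them switch on genes for the uptake and breakdown of a particular carbon source. In fungi d-galUA is broken down without phosphorylated intermediates. A reductase (GAR1) gives l-galactonate, a dehydratase (GaaB) gives 2-keto-3-deoxy-l-galactonate, an aldolase (GaaC) splits this into pyruvate and l-glyceraldehyde, and a further reductase (GaaD) turns l-glyceraldehyde into glycerol.

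Wild-type cells were grown in yeast nitrogen base with d-galUA, glycerol or d-glc as the sole carbon source, and poly(A) RNA of whole cultures was sequenced. There were 3 cultures per carbon source by the methods, all inoculated from a single starter culture, and p-values therefore measure the spread between these cultures. The labels place the harvest in log phase, whereas the methods place it at the onset of stationary phase. In RNA from whole cultures, a lower level in every cell and fewer cells with the transcript cannot be told apart.

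The labels gave 3 d-galUA, 2 glycerol and 4 d-glc libraries, but 1 library went against its label. The library labeled d-glc replicate 4 correlated with the 2 glycerol libraries at r of 0.987 to 0.988 over all genes and with the other 3 d-glc libraries at 0.876 to 0.878. The study's own glycerol means include this library. It was counted with glycerol here, which gave 3 libraries per carbon source, and the tests between glycerol and d-glc of RTO4_13270 and of the 5 genes it is compared with are also given as labeled and without it. The libraries held between 25.8 and 51.9 M mapped reads (M, mega), with a median of 35.2 M. If the whole span of RTO4_13270 were exonic, it would have received between 943 reads, in d-glc replicate 2, and 10537 reads, in d-galUA replicate 2.

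RTO4_13270 was expressed on all 3 carbon sources, and every d-galUA library stood above every other library. Its level in FPKM, fragments scaled by gene length and by mapped reads per library, was 96.2, 92.7 and 89.1 on d-galUA. It was 12.5 and 11.3 FPKM in the glycerol libraries and 13.4 FPKM in the library labeled d-glc replicate 4. In d-glc replicates 1 to 3 it was 8.18, 10.8 and 9.04 FPKM. The lowest d-galUA value was 6.66 times the highest of the glycerol group, while the glycerol and d-glc groups lay close together. The mean was 92.7 ± 3.52 FPKM on d-galUA, 12.4 ± 1.04 FPKM on glycerol and 9.32 ± 1.31 FPKM on d-glc (SD, n = 3 each). With the libraries grouped as labeled, glycerol averaged 11.9 ± 0.861 FPKM (SD, n = 2) and d-glc 10.3 ± 2.30 FPKM (SD, n = 4). TPM, the same abundance scaled to a fixed total per library, also put d-galUA first, with 137.3, 131.9 and 125.6 TPM on d-galUA.

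**Figure D1:**
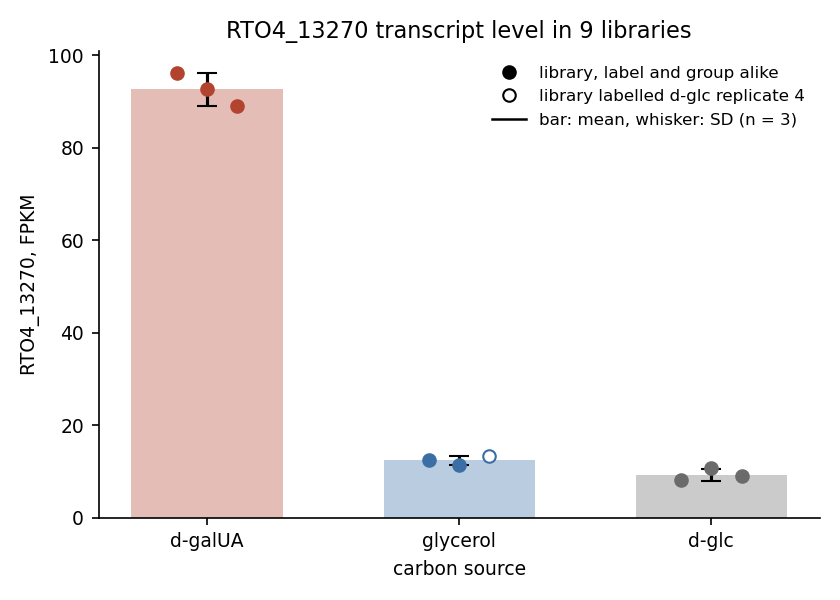
FPKM of RTO4_13270 on a linear axis by carbon source, with 1 point per library, bars for the mean and whiskers for the SD of 3 libraries. The 3 d-galUA libraries sit between 89.1 and 96.2 FPKM and the other 6 between 8.18 and 13.4 FPKM. The open point is the library labeled d-glc replicate 4.

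The mean level on d-galUA was 7.46 times that on glycerol and 9.94 times that on d-glc. On the log2(FPKM + 1) scale, which slightly understates changes at low levels, the difference was 2.81 (SE 0.12, 95% interval 2.55 to 3.06) against glycerol and 3.19 (SE 0.12, 95% interval 2.93 to 3.45) against d-glc. These values come from 1 limma fit over the 8479 gene models with a signal, whose median difference was 0.03 against glycerol and -0.00 against d-glc. A gene was counted as called when its adjusted p was under 0.05, its mean was at least 5 FPKM on 1 of the sources compared, and its means differed at least 2-fold. By this rule 6.95% of the genes stood higher on d-galUA when glycerol was the comparison, and 8.24% when d-glc was. RTO4_13270 met both, which its choice by the study had fixed. Among the 248 genes called higher on d-galUA than on both other sources, it was number 81 by its level on d-galUA and number 54 by its ratio. The median of those 248 genes was 54.3 FPKM on d-galUA, with a ratio of 3.15 to the higher of the other means.

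Between glycerol and d-glc the difference was small. The mean on glycerol was 1.33 times that on d-glc, and the lowest library of the glycerol group was 1.05 times the highest d-glc library, so the groups did not overlap. The log2 difference was 0.38 (SE 0.12, 95% interval 0.13 to 0.64), with a limma adjusted p of 0.0174 over all genes. An exact two-sided permutation test gave p = 0.1, the smallest p that 3 against 3 libraries allow. At a limma adjusted p under 0.05, 53.4% of all genes differed between glycerol and d-glc, and the change of RTO4_13270 was larger than that of 46.3% of genes. With means 1.33-fold apart the gene was not called by the full rule, and its adjusted p did not stay under 0.05 without the library labeled d-glc replicate 4. Without that library, which left 2 on glycerol, the log2 difference was 0.33 (SE 0.13) with a limma adjusted p of 0.0626. With the groups as labeled it was 0.21 with a limma adjusted p of 0.465.

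The place of RTO4_13270 among all genes moved with the carbon source. By mean level it was number 1139 of 8578 on d-galUA, number 5532 on glycerol and number 6055 on d-glc. It was thus above 86.7% of the gene models on d-galUA, above 35.5% on glycerol and above 29.4% on d-glc. In single libraries its rank was 1092, 1144 and 1175 on d-galUA. The ranks were 5461, 5628 and 5447 in the glycerol group and 6007, 5909 and 6159 on d-glc, and the ranks of the 3 groups did not overlap. The median gene model had nearly the same level on all sources, with means of 20.5 FPKM on d-galUA, 20.5 FPKM on glycerol and 21.1 FPKM on d-glc. RTO4_13270 was at 4.37 to 4.70 times the median gene in d-galUA libraries, at 0.572 to 0.630 times in the glycerol group and at 0.419 to 0.487 times on d-glc. Among 7235 genes with a mean of at least 5 FPKM on 1 source, it was number 55 by the ratio of the d-galUA mean to the higher of the other means. Replicates were close, with a coefficient of variation of 3.80% on d-galUA, 8.37% on glycerol and 14.1% on d-glc. The residual SD of the gene was 0.127 on the log2 scale, and 68.4% of 2017 genes within 1.5-fold of its mean level had a larger one.

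**Figure D2:**
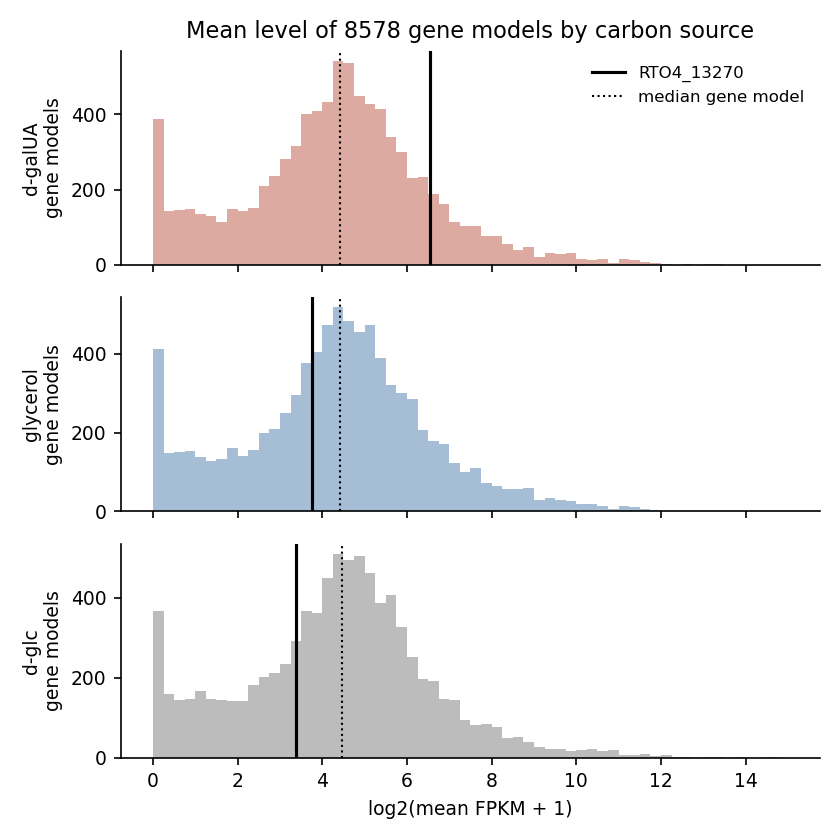
Number of gene models by log2(mean FPKM + 1) for d-galUA, glycerol and d-glc, from top to bottom. The solid line is RTO4_13270 and the dotted line the median gene model. The solid line lies right of the dotted line on d-galUA (92.7 against 20.5 FPKM) and left of it on glycerol (12.4 against 20.5 FPKM) and d-glc (9.32 against 21.1 FPKM).

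The level of the factor was next compared with 5 genes of d-galUA uptake and breakdown, homologs of GAR1 (RTO4_11882), GaaB (RTO4_12062), GaaC (RTO4_12061) and GaaD (RTO4_9774) and the major facilitator transporter RTO4_9841. FPKM are per length and allow such a comparison, and a ratio inside a library does not depend on the scaling of that library. The study chose these 5 genes by their level on d-galUA too, so their contrasts with d-galUA are descriptions. RTO4_13270 was the lowest of the 6 genes in all 9 libraries. On d-galUA the next gene above it was RTO4_9774, at 37.9 to 47.7 times its level. On glycerol the next was RTO4_12062 in 2 libraries (3.61 and 4.35 times) and RTO4_11882 in the library labeled d-glc replicate 4 (5.34 times). On d-glc the next gene was RTO4_12061 or RTO4_9841, at 2.12 to 2.48 times.

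RTO4_11882, the reductase of the first step, had 7070, 7516 and 8414 FPKM on d-galUA. It had 60.7, 59.1 and 71.5 FPKM in the glycerol group and 100.4, 141.4 and 113.2 FPKM on d-glc. Its ratio to RTO4_13270 was 83.0 ± 10.6 on d-galUA, 5.14 ± 0.26 on glycerol and 12.7 ± 0.45 on d-glc (SD, n = 3 each). Between glycerol and d-glc the log2 ratio differed by -1.30, and the ratios did not overlap. For this gene, RTO4_12062, RTO4_12061 and RTO4_9841 the exact permutation test of that difference gave p = 0.1, the smallest possible, and 0.125 adjusted over the 5 genes.

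RTO4_12062, the dehydratase, had the highest level of the 6 on d-galUA, at 9607, 9800 and 10130 FPKM. It had 45.3, 49.2 and 77.4 FPKM in the glycerol group, the last of these in the library labeled d-glc replicate 4, and 22.5, 27.2 and 26.9 FPKM on d-glc. The ratio to RTO4_13270 was 106 ± 6.9 on d-galUA, 4.58 ± 1.10 on glycerol and 2.75 ± 0.23 on d-glc (SD, n = 3 each).

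RTO4_12061, the aldolase, had 6072, 6337 and 6783 FPKM on d-galUA. It had 111.1, 167.9 and 124.0 FPKM in the glycerol group and 20.3, 34.0 and 19.2 FPKM on d-glc. Its ratio to the factor was 69.2 ± 6.5 on d-galUA, 11 ± 3.34 on glycerol and 2.59 ± 0.53 on d-glc (SD, n = 3 each). The ratio in every library of 1 source lay apart from that in every library of the other sources. The same held for RTO4_11882, RTO4_12062 and RTO4_9841. The log2 ratio of RTO4_12061 was 2.06 higher on glycerol than on d-glc, and this difference was 0.71 for RTO4_12062 and 1.33 for RTO4_9841. Without the library labeled d-glc replicate 4, the glycerol minus d-glc difference of the log2 ratio was 2.17 for RTO4_12061, 0.53 for RTO4_12062, 1.31 for RTO4_9841 and -1.33 for RTO4_11882 (exact permutation p = 0.1 each, the smallest that 2 against 3 libraries allow). With the groups as labeled it was 1.70 for RTO4_12061, 0.26 for RTO4_12062, 0.97 for RTO4_9841 and -1.02 for RTO4_11882. The exact permutation p was 0.2, 0.6, 0.267 and 0.0667 in that order, where 0.0667 is the smallest that 2 against 4 libraries allow. Of these genes only RTO4_11882 then had groups that did not overlap.

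RTO4_9774, the l-glyceraldehyde reductase, was the gene of the 5 whose ratio to the factor moved least. It had 3639, 4054 and 4251 FPKM on d-galUA, 791.1, 704.6 and 602.4 FPKM in the glycerol group and 457.5, 515.7 and 599.9 FPKM on d-glc. The ratio to RTO4_13270 was 43.1 ± 4.96 on d-galUA, 56.8 ± 10.2 on glycerol and 56.8 ± 9.24 on d-glc (SD, n = 3 each). The ratio ran from 37.9 to 47.7 on d-galUA, from 45 to 63.1 on glycerol and from 48.0 to 66.4 on d-glc. The d-galUA libraries thus overlapped with the glycerol group and lay just below the lowest d-glc library. On the log2 scale the ratio on d-galUA was 0.39 lower than on glycerol and 0.39 lower than on d-glc, whereas with a pseudocount of 5 these differences were 0.018 and 0.15 in the other direction. Between glycerol and d-glc the log2 ratio differed by -0.00 (exact permutation p = 1), by 0.16 without the library labeled d-glc replicate 4 (exact permutation p = 0.6) and by 0.24 as labeled (exact permutation p = 0.333).

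RTO4_9841, the transporter, had 4572, 4909 and 4334 FPKM on d-galUA. It had 73.3, 74.4 and 85.3 FPKM in the glycerol group and 20.7, 25.3 and 23.6 FPKM on d-glc. Its ratio to RTO4_13270 was 49.7 ± 2.85 on d-galUA, 6.26 ± 0.37 on glycerol and 2.50 ± 0.13 on d-glc (SD, n = 3 each). Its gene model overlapped that of RTO4_9840 by 203 bp, and reads from the shared stretch could have been assigned to either.

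On d-galUA the ratio of RTO4_11882, RTO4_12062, RTO4_12061 and RTO4_9841 to the factor was thus higher than on glycerol, by 4.01, 4.56, 2.69 and 2.99 on the log2 scale in that order of genes. Against d-glc the differences were 2.71, 5.27, 4.76 and 4.31. The fold by which each of these 4 genes stood higher on d-galUA was therefore larger than that of RTO4_13270, and in every d-galUA library each of the 4 ratios was above those in all 6 other libraries.

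**Figure D3:**
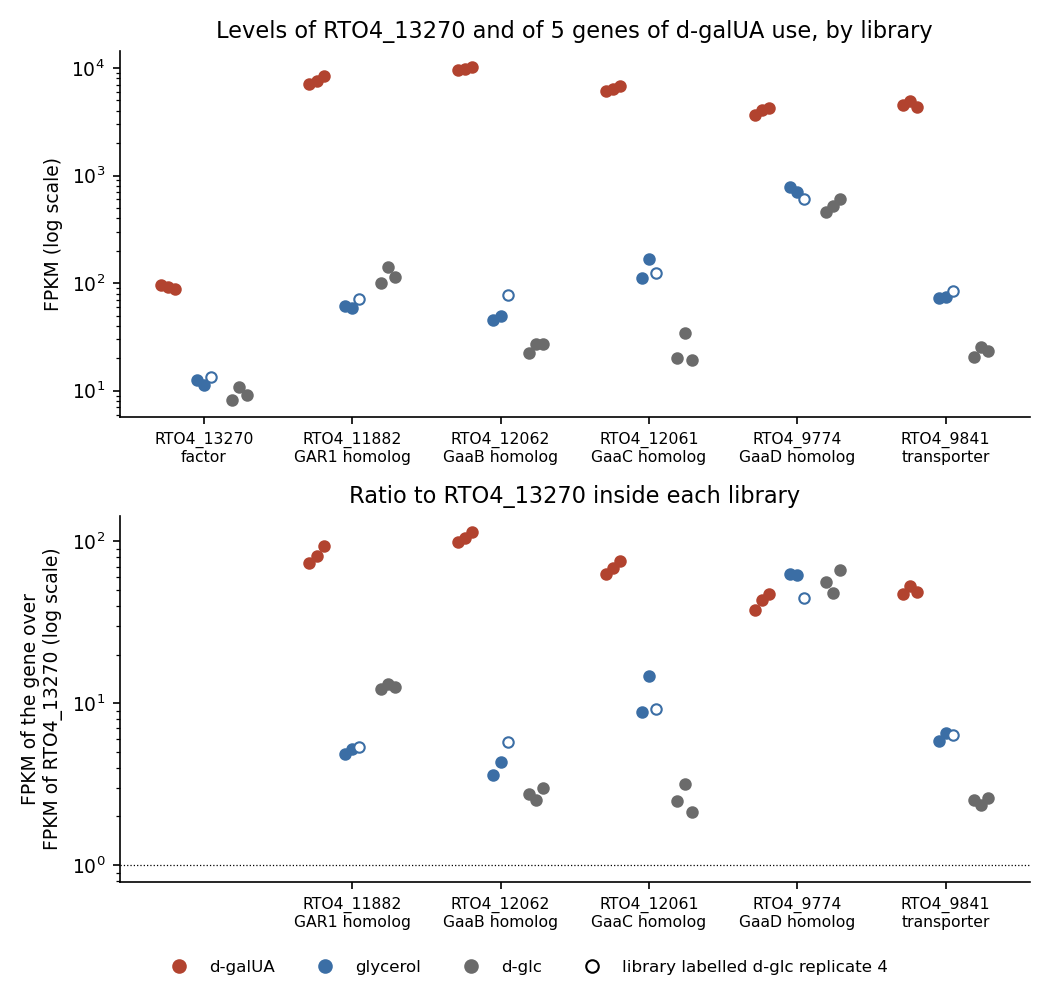
Top, FPKM on a log axis of RTO4_13270 and 5 genes of d-galUA use, 1 point per library, with d-galUA, glycerol and d-glc from left to right within a gene. Bottom, the FPKM of each of the 5 genes over that of RTO4_13270 in the same library, also on a log axis. The d-galUA ratios of RTO4_9774 (37.9 to 47.7) overlap with those of the glycerol group (45 to 63.1) only through the library labeled d-glc replicate 4. They lie below those on d-glc (48.0 to 66.4). The d-galUA ratios of the other 4 genes lie above all of their ratios on glycerol and d-glc.

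All 5 genes also differed between glycerol and d-glc at a limma adjusted p under 0.05, beside 53.4% of all genes. The log2 difference was 2.43 (SE 0.21, limma adjusted p = 5.01e-06) for RTO4_12061, 1.70 (SE 0.10, limma adjusted p = 3.78e-07) for RTO4_9841 and 1.10 (SE 0.17, limma adjusted p = 4.11e-04) for RTO4_12062. It was 0.41 (SE 0.14, limma adjusted p = 0.0302) for RTO4_9774 and -0.87 (SE 0.14, limma adjusted p = 3.90e-04) for RTO4_11882. With the factor at 0.38, 5 of the 6 genes were higher on glycerol than on d-glc and RTO4_11882 was lower. Without the library labeled d-glc replicate 4 the limma adjusted p of the 5 genes lay between 4.97e-06 and 0.0195, and with the groups as labeled it lay between 0.172 and 0.469.

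The genes whose pattern over the 9 libraries was most like that of RTO4_13270 were found by the Pearson correlation of log2(FPKM + 1) with it, among 7234 genes with a mean of at least 5 FPKM on 1 source. The libraries form 3 groups that share a carbon source, so these correlations mostly compare 3 levels and carry no test. The median gene had an r of -0.04, while 188 genes reached 0.95 and 36 reached 0.99. The first 10 genes had an r between 0.995 and 0.999. RTO4_12062, the dehydratase gene, was the second of them. The others with a yeast ortholog in the study's annotation were RTO4_12665 (RNY1, a ribonuclease of the T2 family), RTO4_12846 (ENA, plasma membrane sodium pumps), RTO4_13373 (SEC61, the channel of the endoplasmic reticulum for secreted proteins) and RTO4_16670 (YMR155W). RTO4_8528, RTO4_9491, RTO4_9842, RTO4_10871 and RTO4_15051 had no name there.

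Likeness in pattern went with very different levels and folds. RTO4_8528, the first of the 10, averaged 31.4 FPKM on d-galUA, 2.29 FPKM on glycerol and 1.32 FPKM on d-glc. RTO4_12665 averaged 2278 FPKM on d-galUA, 132 FPKM on glycerol and 93.7 FPKM on d-glc. RTO4_13373 averaged 598 FPKM on d-galUA, 302 FPKM on glycerol and 259 FPKM on d-glc, a much shallower profile. RTO4_9842 averaged 29.2 FPKM on d-galUA, 1.69 FPKM on glycerol and 0.629 FPKM on d-glc. Its gene model spans positions 388221 to 391585 of scaffold 11, next to the transporter gene RTO4_9841 at 384859 to 388212. Both are on the minus strand, so RTO4_9842 lies directly upstream of the transporter gene. These models nearly abut, and the transporter gene averaged 4605 FPKM on d-galUA. Whether some of its reads were assigned to RTO4_9842 was not tested. The 10 genes lay on 8 scaffolds, and RTO4_12846 and RTO4_13373 shared scaffold 3 with the factor. RTO4_12665, RTO4_16670, RTO4_15051 and RTO4_10871 overlap another gene model by 13 to 264 bp.

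A second measure, the root mean square difference after each gene's own mean was removed, also takes the size of the change in log2(FPKM + 1) into account. This scale understates changes at low levels, so genes with larger folds can also rank as near. Its 5 nearest genes were RTO4_9575, RTO4_9774, RTO4_9486, RTO4_9113 and RTO4_11784, at 0.162 to 0.243 on the log2 scale, and none of them was among the first 10 by correlation. RTO4_9774, the l-glyceraldehyde reductase gene, was thus second of 7234 by this measure and number 34 by correlation, with an r of 0.99. RTO4_9113 averaged 163 FPKM on d-galUA, 31.3 FPKM on glycerol and 19.1 FPKM on d-glc. RTO4_9575 averaged 12.9 FPKM on d-galUA, 1.21 FPKM on glycerol and 0.740 FPKM on d-glc. RTO4_9486 averaged 10.7 FPKM on d-galUA, 0.167 FPKM on glycerol and 0.113 FPKM on d-glc. Its d-galUA mean was 64.4 times that on glycerol and 94.8 times that on d-glc, against 7.46 and 9.94 times for the factor. Of the other genes of d-galUA use, RTO4_9841 was number 22 by correlation, RTO4_12061 number 74 and RTO4_11882 number 94.

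**Figure D4:**
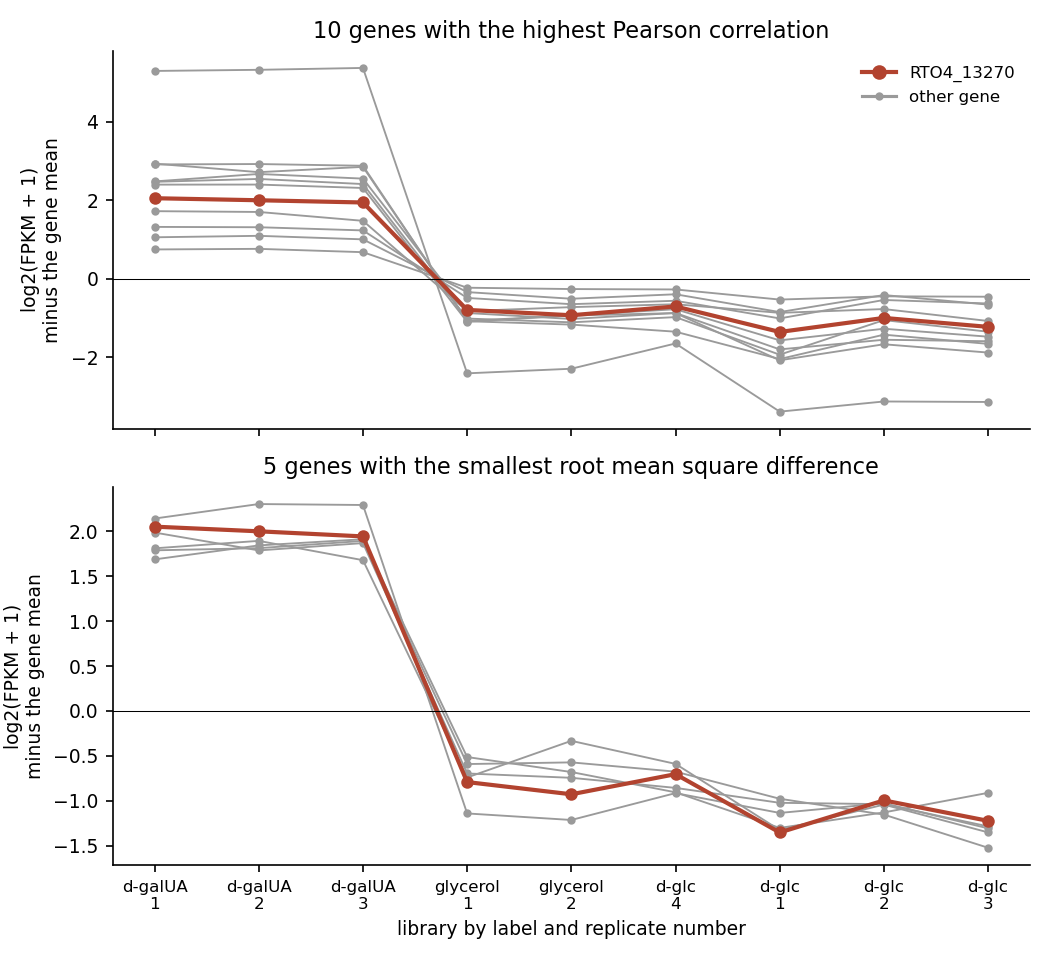
Log2(FPKM + 1) minus the mean of each gene over 9 libraries, for RTO4_13270 (thick line) and the genes most like it (thin lines). The upper plot has the 10 genes with the highest correlation (0.995 to 0.999), whose folds differ widely, and the lower the 5 genes with the smallest root mean square difference (0.162 to 0.243). The library labeled d-glc replicate 4 stands beside the 2 glycerol libraries.

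The 5 gene models on each side of RTO4_13270 on scaffold 3 were examined next. The nearest one upstream, RTO4_13269, is the ortholog of TOP1, DNA topoisomerase I, lies on the same strand and ends 269 bp before RTO4_13270 starts. It averaged 57.7 ± 2.1 FPKM on d-galUA, 60.0 ± 3.18 FPKM on glycerol and 70.4 ± 11.3 FPKM on d-glc (SD, n = 3 each). Its log2 difference was -0.05 (limma adjusted p = 0.729) between d-galUA and glycerol and -0.27 (limma adjusted p = 0.0758) between d-galUA and d-glc. The nearest one downstream, RTO4_13271, is a model of 265 bp on the opposite strand that starts 11 bp after RTO4_13270 ends, and it was listed at 0 in all 9 libraries. The next one, RTO4_13272, lies 419 bp away on the opposite strand and averaged 0.392 FPKM on d-galUA, 3.37 FPKM on glycerol and 1.05 FPKM on d-glc. It is named because it is the nearest downstream model with a signal, a choice made after its values were seen.

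Of the 10 neighbors, 9 had a signal and could be tested. Between d-galUA and glycerol 1 was called higher and 1 lower, while 14.6% of all genes were called in either direction. RTO4_13266 averaged 29.4 FPKM on d-galUA and 12.0 FPKM on glycerol (log2 difference 1.22, SE 0.18, limma adjusted p = 3.43e-04). RTO4_13267 averaged 14.2 FPKM on d-galUA and 30.4 FPKM on glycerol (log2 difference -1.04, SE 0.13, limma adjusted p = 8.17e-05). Between d-galUA and d-glc 1 was called higher, while 15.7% of all genes were called. This was RTO4_13265, the ortholog of GLO1, glyoxalase I, with 115 FPKM on d-galUA and 55.5 FPKM on d-glc (log2 difference 1.09, SE 0.21, limma adjusted p = 0.00162), and the call was lost without d-galUA replicate 3, without d-glc replicate 1 and with the groups as labeled. Between glycerol and d-glc limma called 0 of the 9 neighbors, while 18.8% of all genes were called. At an unadjusted p under 0.05 there were 5, beside 4987 of the 8479 genes tested. The linear model with Ballgown's library size term also called 0 neighbors. The median log2 difference of the 9 neighbors was 0.16 on d-galUA against glycerol and -0.24 on d-galUA against d-glc, against 0.03 and -0.00 over all genes tested.

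The level of RTO4_13270 was also set against 13 other regulators, 8 transcription regulators named by their yeast ortholog and 5 genes (SNF1, SNF4, SIP2, RIM11 and UBP14) that the study's annotation places with regulatory proteins or glycogen metabolism. The first 8 come from an annotation table sorted by the level on d-galUA, of which the lower part was not used here, so regulators that are low on d-galUA are missing. On d-galUA RTO4_13270 was number 5 of the 14 genes, below SPT15 (RTO4_14584, the TATA-binding protein, 109.3 FPKM) and above CYC8 (RTO4_14550, a general corepressor, 81.3 FPKM). All 3 of its d-galUA libraries were above those of 9 regulators and below those of 4. On glycerol and on d-glc it was the lowest of the 14, and each of its libraries was below all libraries of each of the 13 regulators. The regulator next above it on both was SNF4 (RTO4_14809, a subunit of the Snf1 kinase complex), with 17.6 FPKM on d-galUA, 17.5 FPKM on glycerol and 13.8 FPKM on d-glc. The means of the 13 regulators differed 1.21- to 2.32-fold between their highest and lowest carbon source, and those of RTO4_13270 differed 9.94-fold. The study chose RTO4_13270 partly for its higher level on d-galUA, so a large fold was built into this contrast.

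The ortholog of GAL4 (RTO4_13588), whose yeast counterpart is a Zn2Cys6 factor, had 61.8, 67.9 and 64.0 FPKM on d-galUA. It had 48.8 and 55.1 FPKM in the glycerol libraries, 48.8 FPKM in the library labeled d-glc replicate 4, and 30.5, 33.6 and 28.0 FPKM on d-glc. RTO4_13270 was higher than the GAL4 ortholog in all 3 d-galUA libraries and lower in all 6 others. The GAL4 ortholog was the 1 regulator of 13 called between d-galUA and d-glc, beside 15.7% of all genes (log2 difference 1.05, SE 0.10, limma adjusted p = 1.18e-05), and its gene model overlaps RTO4_13587 by 153 bp. Between glycerol and d-glc 1 regulator of 13 was called, beside 18.8% of all genes. It was RIM11 (RTO4_10259, a kinase of the GSK3 family), with 775 FPKM on glycerol and 334 FPKM on d-glc (log2 difference 1.22, SE 0.11, limma adjusted p = 6.11e-06). Both calls were lost with the groups as labeled. Between d-galUA and glycerol limma called 0 of the 13 by the full rule, beside 14.6% of all genes, and the model with Ballgown's library size term called 0. At an unadjusted p under 0.05 there were 10. The count over all genes at that threshold was not computed, so the 10 cannot be read as particular to regulators. At an adjusted p under 0.05 without the 2-fold criterion 4 were higher and 5 lower, beside 2138 higher and 2042 lower of the 8479 genes tested. The median log2 difference of the 13 regulators was -0.13 between d-galUA and glycerol, 0.21 between d-galUA and d-glc and 0.36 between glycerol and d-glc, against 0.03, -0.00 and 0.02 over all genes tested.

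**Figure D5:**
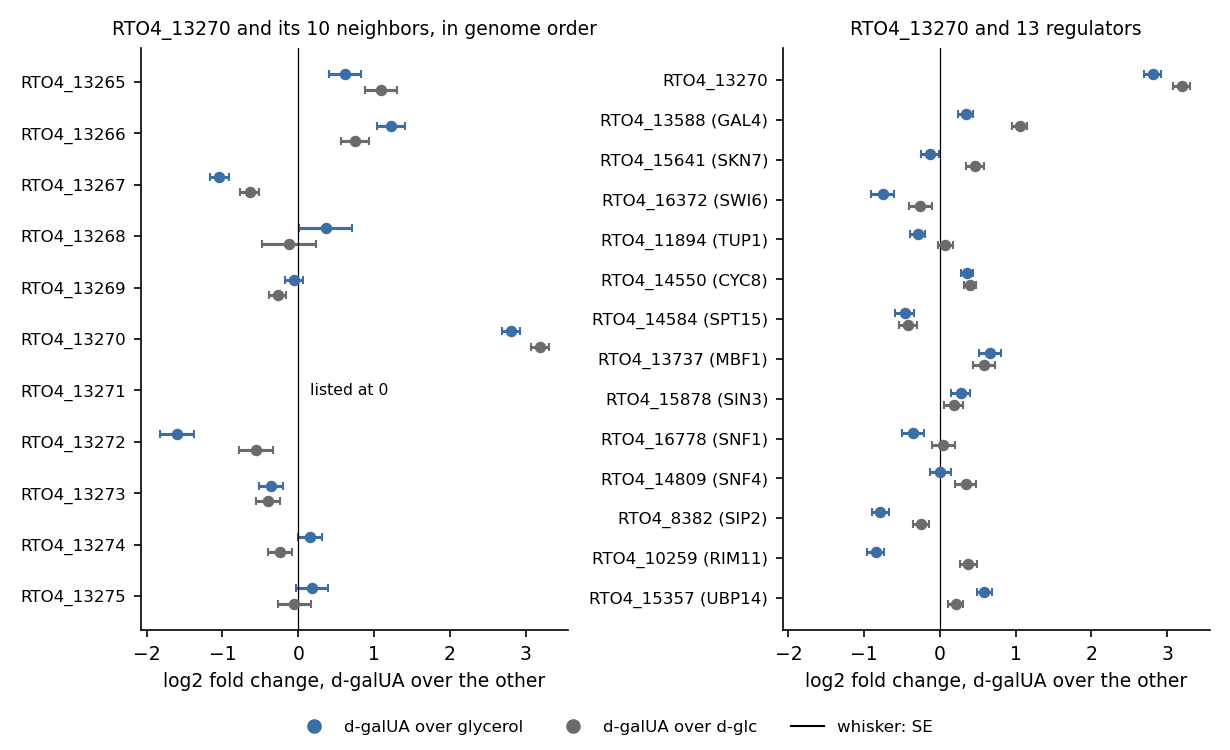
Log2 fold change of d-galUA over glycerol (blue) and over d-glc (gray), with the SE from the limma fit. The left plot has RTO4_13270 and its 10 neighbors in genome order, and the right plot RTO4_13270 and 13 regulators. RTO4_13270 lies at 2.81 and 3.19, and every other gene lies between -1.59 and 1.22.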

How the data were processed

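The deposited tables held 1 value per gene model and library. The authors mapped 50-bp single-end reads with HISAT2 2.1.0 to version 4 gene models, and StringTie 1.3.3b made the abundances. The deposited FPKM is a gene's abundance per length and per mapped reads in that library. The deposited TPM scales it to a fixed total, and the deposited coverage is the mean read depth over a gene. Strand and the handling of reads that fit several genes are not given in the sources used here. Depth was computed from coverage and FPKM. Intervals were computed from the spread between libraries, which already holds the counting error of each library.

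Libraries were grouped by label, except that the library labeled d-glc replicate 4 was counted with glycerol, as in the study's own means. FPKM are not counts, so limma 3.58.1 (R 4.3.3) was fitted to log2(FPKM + 1) of all 9 libraries at once, with a trend of variance on mean level, and p-values were adjusted over 8479 genes by the Benjamini-Hochberg method. The script was tested on simulated data. Ratios, ranks, correlations and exact tests used pandas 2.3.3, numpy 2.4.6 and scipy 1.17.1 under Python 3.11.15. Plots were drawn in matplotlib 3.10.9. The genes named are RTO4_13270, the 5 genes of d-galUA use, the nearest and the called neighbors out of 5 on each side, the 10 genes highest in correlation and the 5 lowest in root mean square difference, and the 13 regulators. These genes and lists were chosen with earlier results of these data known. Alternatives were pseudocounts of 0.1 and 5, a minimum mean of 1 FPKM, TPM, median-of-ratios and quantile scaling, limma without a trend, an unmoderated model with Ballgown's library size term, the groups as labeled, a block for the replicate number, and the removal of 1 library at a time. The RefSeq gene table of strain NP11 matched 0 of 8578 identifiers and was not used. Gene names are those of the study's annotation.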

Additional observations from a re-analysis of the deposited data

Results flagged for a closer look

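In groups of 4 libraries as labeled, a library stood apart when its gap to the nearest of the others took a larger part of the range than Dixon's 95% critical value for 4 values. Of 41 genes checked in the d-glc libraries 7 were so marked. By chance about 1 group in 20 is marked when all its libraries are of 1 kind, which was not the case here. The share over all gene models was not computed, so the 7 cannot be read as many or few. Of the 7, 5 were marked in the library labeled d-glc replicate 4, which resembled the glycerol libraries over all genes. Whether such marks are more frequent among the genes named than among others was not tested. In the library labeled d-glc replicate 4, RTO4_12062 was at 77.4 FPKM, RTO4_12061 at 124.0 FPKM, RTO4_9841 at 85.3 FPKM, RTO4_13272 at 5.02 FPKM and RTO4_11894, the ortholog of the corepressor TUP1, at 72.6 FPKM, each above the other 3 d-glc libraries. RTO4_13270 itself was not marked, since its gap took 0.505 of the range. In d-glc replicate 3, the neighbors RTO4_13268 and RTO4_13275 were at 96.5 FPKM and 0.637 FPKM.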

How the results depend on the processing

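The log2 difference of RTO4_13270 lay between 2.49 and 2.89 for d-galUA against glycerol and between 2.77 and 3.31 for d-galUA against d-glc under all alternatives, with the lowest of each (2.49 and 2.77) at a pseudocount of 5. When each library was left out in turn it lay between 2.75 and 2.86 against glycerol and between 3.11 and 3.29 against d-glc. Between glycerol and d-glc, leaving out each library gave 0.30 to 0.48, with limma adjusted p between 0.00364 and 0.0626, the highest without the library labeled d-glc replicate 4. The groups as labeled gave 0.21 there. The replicate numbers did not pair the libraries (correlations of same-numbered deviations ran from -0.15 to 0.21 over 7 pairs), and with the replicate number as a block the difference was 0.31 (limma adjusted p = 0.146). Only the library labeled d-glc replicate 4 has the number 4, so this block also takes that library out of the comparison. With the groups as labeled, limma called 804 genes between d-galUA and glycerol, 776 between d-galUA and d-glc and 1 between glycerol and d-glc, against 1242, 1330 and 1595. As labeled, 0 neighbors were called between d-galUA and d-glc, and 0 regulators there and between glycerol and d-glc. Leaving out libraries gave 0 to 2 neighbors in the d-galUA and d-glc comparison (0 without d-galUA replicate 3 or d-glc replicate 1, 2 without d-glc replicate 2). The log2 ratio of RTO4_9774 to RTO4_13270 on d-galUA turned from lower to 0.018 higher than on glycerol and 0.15 higher than on d-glc with a pseudocount of 5. That pseudocount moved the log2 ratio from 5.81 to 5.33 on glycerol and from 5.81 to 5.20 on d-glc, where the factor was low. On d-galUA the log2 ratio moved from 5.42 to 5.35. Under the other 12 alternatives the ratio on d-galUA stayed lower than on both. By Spearman correlation 0 of the 10 genes most alike kept their place among the first 10, and 6 did without d-glc replicate 1 or without d-glc replicate 3.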
